A study of Rattus norvegicus with 12 samples.

Results

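The genes examined were those of the mitochondrial respiratory chain and the ATP synthase, compared between F111 rat fibroblasts kept in suspension for 16 h (NA16) and F111 cells plated to attach for 16 h (A16). They were chosen by symbol, as every gene of the array annotated with a single symbol of the Nduf, Sdh, Uqcr, Cox4 to Cox8 or Atp5 families or as Cyc1 or Cycs. The choice gave 91 genes of 14217 tested, of which 78 encoded structural subunits of the 5 complexes and 13 encoded other proteins, namely 10 assembly factors, the supercomplex factor Cox7a2l, the ATP synthase inhibitor Atp5if1 and the annotated pseudogene Cox6c-ps1. F111 is an established fibroblast line from the Fischer rat whose chromosomes the study describes as abnormal already in attached cells. Cells of both groups were first detached with trypsin. NA16 cells were then plated on an agarose layer and A16 cells on uncoated plastic, in the same serum-containing medium, and neither group carried a transgene or drug. Each state was hybridised to 3 arrays, labelled biological replicate 1, technical replicate 2 and biological replicate 2, and array values are given in that order. The study describes that most suspended cells lose viability by this time, and its methods do not mention removing dead cells before RNA was extracted.

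The respiratory chain passes electrons from food-derived NADH and succinate to oxygen and pumps protons across the inner mitochondrial membrane. Complex I takes electrons from NADH, complex II takes them from succinate, complex III hands them to cytochrome c, complex IV gives them to oxygen, and complex V, the ATP synthase, lets the protons flow back to make ATP. Nearly all subunits are encoded in the nucleus, a core set is encoded in mitochondrial DNA, and dedicated assembly factors put the complexes together without remaining in them.

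Among the transcripts of the respiratory chain and the ATP synthase that passed the test, falls in NA16 cells outnumbered rises, and most were under 2-fold. Of the 91 genes, 29 fell (31.9%) and 3 rose (3.3%) by limma with Benjamini-Hochberg adjustment over all genes at a threshold of 0.05, and 59 did not pass. Over all 14217 genes 16.9% were called lower and 21.9% higher, and the members lean towards bright genes, of which more are called in either direction. The median log2 change was -0.20, with a range of -2.19 to 0.94, against a median of 0.01 over all genes tested. Without A16 replicate 1 the median of the members was -0.12. Only Ndufaf4 and Cyc1 fell by 2-fold or more. On all 3 NA16 arrays 50 genes (54.9%) lay below all 3 A16 arrays, where 23.9% of all genes did so. Another 8 lay above, where 27.8% of all genes did so. The other 33 overlapped. Among the brightest 20% of genes 57.1% of the 70 members lay below, against 36% of all genes there. Above lay 4 of these members, against 944 of all 2844 genes there.

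These calls rested on 2 replicates per state, since the technical replicate was averaged with biological replicate 1. With 1 replicate left out in turn, fewer members were called lower in each of the 4 fits, and so were fewer of all genes. In the fit of all replicates and in these 4 fits alike, 13 genes were called lower, namely Ndufaf4, Cyc1, Uqcrq, Ndufa11, Ndufa12, Ndufa2, Ndufab1, Ndufb6, Ndufs6, Ndufv1, Atp5pf, Atp5mc3 and Cox5a, and 2 were called higher, Cox6a2 and Cox7a2l. How many of all genes were called in every one of those fits was not counted, so the 13 and the 2 have no background share. The direction of each of the 32 called genes was kept in each of the 17 alternative fits. These fits re-use the same arrays, and some share the log2 change of the main fit, so this is no independent support. Of the 91 genes, 70 were in the brightest 20% of all genes, where 22 fell (31.4%) and 1 rose (1.43%) with a median of -0.21. Over all 2844 genes of that brightness 28.2% were called lower and 26.7% higher, with a median of -0.02, so among bright genes the share of falls was near the background and the share of rises below it.

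**Figure D1:**
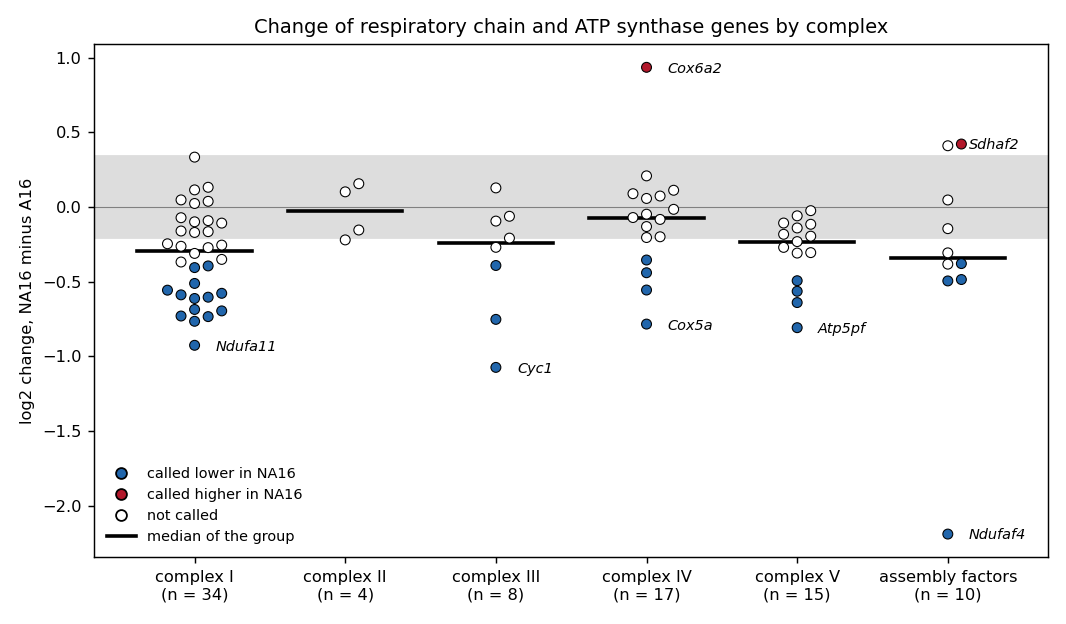
Log2 change (NA16 minus A16, vertical axis) of 88 of the 91 genes, each point 1 gene, by complex; filled points passed limma at an adjusted p below 0.05, bars are medians and the grey band holds the middle 50% of all 14217 genes. Most points of complexes I, III and V lie below 0, the 4 complex II genes lie around 0, and Ndufaf4 stands lowest at -2.19.

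The median array value lay between 152.5 and 157.9 on the 6 arrays. Of the 10 fibroblast markers 8 were in the brightest 20% of genes, 3 rose (Pdgfra, Pdgfrb and Thy1) and none fell, with summed intensities of 96672 to 125787 on NA16 arrays and 112556 to 129795 on A16 arrays, and Postn was low in both. The 6 macrophage markers summed to 633 to 683 on NA16 arrays and 455 to 491 on A16 arrays, with Cd68 the only one called. The 5 epithelial markers summed to 2632 to 3087 on NA16 arrays and 1203 to 1386 on A16 arrays, where Krt8 and Epcam rose and Cdh1 was at 5.30 in NA16 and 5.21 in A16. The difference between the 3′ and 5′ control probe sets of Gapdh, a sign of RNA integrity, was -0.03 to 0.06 on NA16 arrays and -0.07 to 0.00 on A16 arrays. That of hexokinase was 0.77 to 0.80 on NA16 arrays and 0.76 to 0.97 on A16 arrays. That of beta-actin was 0.87 to 0.93 on NA16 arrays and 0.37 to 0.44 on A16 arrays. The part of these differences in the results was not tested, and in such bulk RNA fewer cells of a kind and less RNA per cell cannot be told apart.

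Complex I, the NADH dehydrogenase, held the largest number of falls. Its share of falls was 41.2%, against 16.9% of all genes. Among the brightest 20% of genes 28.2% were called lower and 26.7% higher. Of its 34 measured subunits 14 fell and 0 rose at a median log2 change of -0.29, with 10, 10, 10 and 12 falls as NA16 replicate 1, NA16 replicate 2, A16 replicate 1 and A16 replicate 2 were left out. The NADH-oxidising tip of the matrix arm, the N module, had 5 of 8 subunits lower at a median of -0.51. The Q module, which carries electrons on to the quinone site, had 2 of 4 lower at a median of -0.41, and the remaining 22 subunits had 7 lower at a median of -0.27. No test was made between modules, whose members are not replicates.

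In the N module the largest fall was that of Ndufs6, an accessory subunit with a zinc site that is needed late in assembly. Its log2 intensity was 11.01, 11.08 and 10.97 on the NA16 arrays, against 11.80, 11.82 and 11.73 on the A16 arrays. The 2 states did not overlap and the fall was 1.70-fold (log2 change -0.76 ± 0.11 SE, adjusted p = 0.00186). Ndufv1, the flavoprotein that takes the electrons from NADH, measured 10.85, 10.96 and 10.91 in NA16 cells, against 11.69, 11.67 and 11.60 in A16 cells. It too was lower on every NA16 array, by 1.66-fold (adjusted p = 0.00209). Ndufa12, an accessory subunit where the N and Q modules meet, stood at 12.64, 12.53 and 12.48 in NA16 cells, against 13.32, 13.38 and 13.18 in A16 cells, a fall of 1.66-fold (adjusted p = 0.00317). Ndufa2, an accessory subunit with a thioredoxin-like fold, was 1.53-fold lower. Ndufs1, the largest iron-sulfur subunit, was 1.32-fold lower, a call that was lost when any 1 replicate was left out (adjusted p up to 0.179 over all alternatives). The other 3 did not pass: Ndufv2, the partner of Ndufv1 in the flavoprotein fragment, changed by -0.17, Ndufv3 by -0.07 and Ndufs4 by 0.13. Of these 3, Ndufv2 was lower on every NA16 array, Ndufv3 overlapped and Ndufs4 was higher on every NA16 array.

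In the Q module Ndufa5, an accessory subunit on the matrix arm, gave 11.24, 11.07 and 10.98 in NA16 cells, against 11.62, 11.71 and 11.63 in A16 cells. The arrays did not overlap and the fall was 1.49-fold (adjusted p = 0.00805), not called without NA16 replicate 2. Ndufs3, a core subunit of the arm, was 1.47-fold lower (adjusted p = 0.019), a call lost without NA16 replicate 1 or A16 replicate 1. Ndufs8 and Ndufs7, which carry the iron-sulfur clusters nearest the quinone, changed by -0.25 and -0.16 and did not pass.

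Among the other subunits, Ndufa11, a membrane-arm subunit, fell furthest of complex I. Its log2 intensity was 11.15, 11.00 and 10.79 in NA16 cells, against 11.90, 12.15 and 11.69 in A16 cells. Every NA16 array lay below every A16 array and the fall was 1.90-fold (log2 change -0.93 ± 0.16 SE, adjusted p = 0.00383). Ndufb8 of the distal membrane arm was 1.62-fold lower but spread from 9.48 to 9.91 in NA16 cells and from 10.09 to 10.75 in A16 cells, and passed at an adjusted p of 0.0269 with all replicates but not without A16 replicate 1. Ndufb6, of the same arm, was steadier, at 11.46, 11.29 and 11.34 in NA16 cells, against 11.99, 12.17 and 12.01 in A16 cells, a fall of 1.61-fold (adjusted p = 0.00276). Ndufab1, the mitochondrial acyl carrier protein that also serves fatty acid synthesis, was 1.50-fold lower. Ndufb4, Ndufb9 and Ndufb10 were 1.52-fold, 1.43-fold and 1.31-fold lower, so that 5 of the 11 Ndufb subunits fell, at a median of -0.31. Of the 11 remaining Ndufa, Ndufab and Ndufc subunits 2 fell, Ndufa11 and Ndufab1, at a median of -0.16. Ndufb4 was not called without NA16 replicate 2, Ndufb9 without NA16 replicate 1, and Ndufb10 with any 1 replicate left out. The highest change in complex I was that of Ndufa6, at 0.33, which did not pass.

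**Figure D2:**
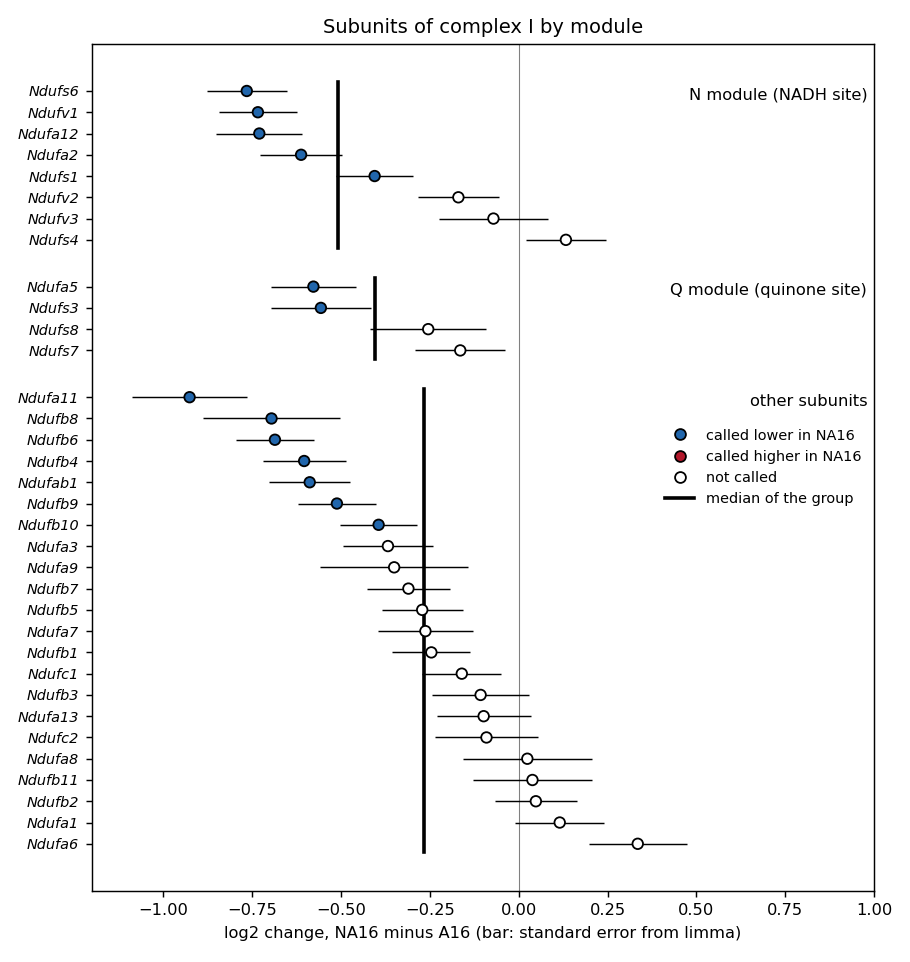
Log2 change (NA16 minus A16, horizontal axis) of the 34 complex I subunits, each point 1 gene with its standard error from limma, grouped by module; filled points passed at an adjusted p below 0.05 and thick bars are module medians. The N module runs from -0.76 for Ndufs6 to 0.13 for Ndufs4, and no subunit was called higher.

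Complex II, the succinate dehydrogenase, is the only complex that is wholly nuclear-encoded and pumps no protons, and it also works in the citric acid cycle. None of its 4 genes passed, with a median log2 change of -0.03, which ran from -0.12 without A16 replicate 2 to 0.07 without NA16 replicate 2. Sdha, the flavoprotein that oxidises succinate, gave 11.18, 11.16 and 11.13 in NA16 cells, against 11.01, 10.87 and 11.05 in A16 cells. Those arrays stood apart, by a log2 difference of 0.16 ± 0.11 SE (adjusted p = 0.354). Sdhb, the iron-sulfur subunit, changed by 0.10 and the membrane anchors Sdhc and Sdhd by -0.22 and -0.15, with adjusted p between 0.223 for Sdhc and 0.593 for Sdhb. The standard errors were 0.11 to 0.15, and no test compared this complex with the others.

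In complex III, the cytochrome bc1 complex, 3 of 8 measured subunits fell at a median of -0.24, and Cyc1 and Uqcrq fell whichever replicate was left out. The share of falls was 37.5%, against 28.2% over the brightest 20% of all genes. Cyc1, the cytochrome c1 that hands electrons to cytochrome c, showed the largest fall of the structural subunits measured by a probe set of their own. Its log2 intensity was 12.02, 11.69 and 11.62 in NA16 cells, against 12.86, 12.98 and 12.70 in A16 cells. The states were separated on every array and the fall was 2.10-fold (log2 change -1.07 ± 0.14 SE, adjusted p = 0.00109). Uqcrq, a small accessory subunit, stood at 12.49, 12.30 and 12.30 in NA16 cells, against 13.19, 13.45 and 12.88 in A16 cells. It fell 1.68-fold (adjusted p = 0.00983). Uqcrc1, a core subunit on the matrix side, was 1.31-fold lower at an adjusted p of 0.0469, which was lost when any 1 replicate was left out. Its partner core subunit Uqcrc2 changed by 0.13 and Uqcrfs1, the Rieske iron-sulfur protein of the same catalytic cycle as Cyc1, by -0.06, and neither passed. Cycs, the mobile cytochrome c, was not analysed here, since no probe set carried it as its only symbol.

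Complex IV, cytochrome c oxidase, contains subunits that come in forms specific to a tissue or to low oxygen. Of its 17 measured genes 4 fell (23.5%) and 1 rose (5.88%), at a median of -0.07, where 16.9% and 21.9% of all genes did so. The falls numbered 2 without NA16 replicate 1 or A16 replicate 2 and 1 without NA16 replicate 2 or A16 replicate 1, and the median was -0.18 without A16 replicate 2, -0.11 without NA16 replicate 1, -0.04 without NA16 replicate 2 and -0.03 without A16 replicate 1. Without the 7 muscle, testis and hypoxia forms the 10 common subunits had 3 falls, 0 rises and a median of -0.16. Ndufa4 and Ndufa4l2, named for complex I but known as complex IV subunits, were counted here.

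Cox5a, a subunit next to the catalytic core, measured 7.51, 7.56 and 7.58 in NA16 cells, against 8.19, 8.24 and 8.46 in A16 cells. All NA16 arrays were lower, by 1.72-fold (adjusted p = 0.00287). Of the 10 common subunits 9 were in the brightest 20% of genes, and Cox5a, on this probe set, was not. Ndufa4 varied little within a state, at 12.63, 12.66 and 12.65 in NA16 cells, against 13.06, 13.14 and 13.08 in A16 cells. Its fall of 1.36-fold passed with all replicates (adjusted p = 0.017) and not with any 1 of them left out. Cox7b2, a testis form, was 1.47-fold lower (adjusted p = 0.0356), not called without NA16 replicate 2 or A16 replicate 1, and Cox6a1 was 1.28-fold lower (adjusted p = 0.0399), not called with any 1 replicate left out. The common subunits Cox4i1, Cox6b1, Cox7c and Cox8a changed by 0.06, -0.01, 0.09 and 0.07 and did not pass.

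Of the isoform pairs with both forms measured, Cox6a was the one with a call in each direction. Cox6a2, the heart and skeletal muscle form, was the member with the largest rise and stood at 8.09, 7.90 and 7.78 in NA16 cells, against 6.94, 7.06 and 6.90 in A16 cells. No array overlapped and the rise was 1.91-fold (log2 change 0.94 ± 0.13 SE, adjusted p = 0.0013), while its common counterpart Cox6a1 was called lower. Of 10 muscle markers, 1 rose (Des, which encodes desmin) and 1 fell (Myh1), 5 were in the dimmest 20% of genes, and Ckm, the muscle creatine kinase, was at 5.97 in NA16 and 6.03 in A16. The summed intensity of those markers was 6711 to 6870 on NA16 arrays and 5756 to 6640 on A16 arrays, and its part in the rise of Cox6a2 was not tested. Myh1 and Des, the brightest of those markers, changed by -1.04 and 2.48 and so offset each other in that sum. The other muscle forms, Cox7a1 and Cox8b, changed by 0.21 and -0.07 and did not pass. The forms linked to low oxygen did not pass either: Cox4i2 was at 6.21 in NA16 and 6.26 in A16, and Ndufa4l2 was at 7.05 in NA16 and 6.93 in A16. Both, like Cox6a2, were in the second-dimmest 20% of genes. There 6.05% of genes were called lower and 17.2% higher, and a change may go unseen. The testis form Cox6b2 was in the dimmest 20% of genes.

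All 15 subunits of complex V, the ATP synthase, that had a probe set of their own showed a log2 change below 0. Of these 4 passed (26.7%) and 0 rose, at a median of -0.23. Atp5pb, Atp5f1c, Atp5f1b and Atp5po did not keep that sign in every alternative fit. All 15 were in the brightest 20% of genes, where 28.2% of genes were called lower and 26.7% higher. The share of falls was thus near the background. Of all 2844 genes of that brightness 1451 had a log2 change below 0. The 5 subunits of the F1 head, where ATP is made, had 1 fall at a median of -0.14, and the 10 stalk and membrane subunits had 3 falls at a median of -0.25. The falls of the complex numbered 2 without NA16 replicate 2, 3 without A16 replicate 1 and 4 without either of the other 2. Atp5pf, coupling factor 6 of the peripheral stalk, fell furthest. It measured 11.69, 11.64 and 11.43 in NA16 cells, against 12.30, 12.34 and 12.39 in A16 cells. There was no overlap and the fall was 1.75-fold (log2 change -0.81 ± 0.13 SE, adjusted p = 0.00254). Atp5mc3, which encodes the proton-carrying c subunit of the membrane ring, stood at 13.19, 13.04 and 13.10 in NA16 cells, against 13.67, 13.63 and 13.85 in A16 cells, a fall of 1.56-fold (adjusted p = 0.00568). Atp5mf, a small membrane subunit, was 1.48-fold lower (adjusted p = 0.00727), not called without NA16 replicate 2. Atp5f1a, the alpha subunit of the head, was 1.41-fold lower (adjusted p = 0.0277), a call lost without NA16 replicate 2 or A16 replicate 1. Its catalytic partner beta, Atp5f1b, changed by -0.11 and the central stalk gamma subunit Atp5f1c by -0.06, and neither passed. Atp5if1, which stops the enzyme from running backwards, changed by 0.26 ± 0.20 SE with overlapping arrays.

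**Figure D3:**
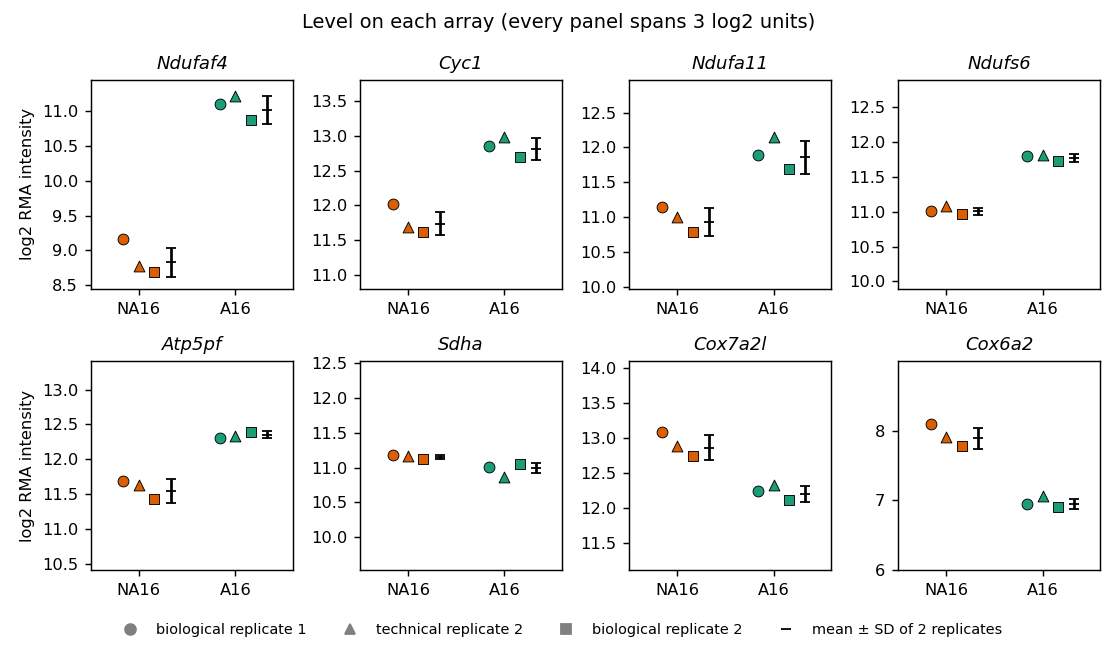
Log2 RMA intensity (vertical axis, 3 log2 units in each panel) of 8 genes on the 3 NA16 arrays (left) and the 3 A16 arrays (right), with the mean and SD of the 2 replicates per state beside them. The first 5 genes are lower on every NA16 array, Sdha differs by 0.16, and Cox7a2l and Cox6a2 are higher on every NA16 array.

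The assembly factors held the largest single change. Of 10 factors 4 fell (40%) and 1 rose (10%), at a median of -0.34, where 16.9% and 21.9% of all genes did so. The falls numbered 2 without NA16 replicate 1 or A16 replicate 1, 1 without NA16 replicate 2 and 3 without A16 replicate 2, and the median was -0.19 without NA16 replicate 2 and -0.21 without A16 replicate 1. Ndufaf4, a factor for the early assembly of complex I, measured 9.16, 8.78 and 8.68 in NA16 cells, against 11.10, 11.21 and 10.88 in A16 cells. The gap between the states was many times the spread within them and the fall was 4.56-fold (log2 change -2.19 ± 0.15 SE, adjusted p = 1.1e-04). Ndufaf3, with which the Ndufaf4 protein is known to pair, gave 10.32, 10.27 and 10.26 in NA16 cells, against 10.38, 10.62 and 10.35 in A16 cells. It changed by only -0.14 and did not pass. Ndufaf8, an assembly factor of complex I, was 1.40-fold lower (adjusted p = 0.0334), not called without NA16 replicate 2, A16 replicate 1 or A16 replicate 2. Ndufaf1 changed by 0.41 in the other direction and did not pass (adjusted p = 0.0771).

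For complex II, whose subunits did not pass, 3 of the 4 assembly factors did, 2 lower and 1 higher. Over all genes of the brightness of these 4 factors, 26.6% were called lower and 30.2% higher. Calls in either direction were thus common at that brightness, and the factors were not tested against the subunits. Sdhaf1, which helps insert iron-sulfur clusters into Sdhb, was 1.41-fold lower (adjusted p = 0.011) and Sdhaf4, which helps mature Sdha, 1.30-fold lower (adjusted p = 0.0323). Sdhaf2, which attaches the flavin to Sdha, was at 10.70, 10.37 and 10.42 in NA16 cells, against 10.02, 9.81 and 10.20 in A16 cells, 1.34-fold higher at an adjusted p of 0.0485. None of these 3 calls stood up to leaving out each replicate: Sdhaf4 was lost without any 1 of the 4, Sdhaf1 without either NA16 replicate, and Sdhaf2 without NA16 replicate 1, NA16 replicate 2 or A16 replicate 1. Cox7a2l, a factor that ties complexes III and IV into supercomplexes, stood at 13.09, 12.89 and 12.74 in NA16 cells, against 12.24, 12.32 and 12.12 in A16 cells. All NA16 arrays were above all A16 arrays and the rise was 1.58-fold (log2 change 0.66 ± 0.14 SE, adjusted p = 0.00761). Cox6c-ps1, an annotated pseudogene of Cox6c, changed by -0.15 and its probes may read Cox6c itself, which changed by -0.20.

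**Figure D4:**
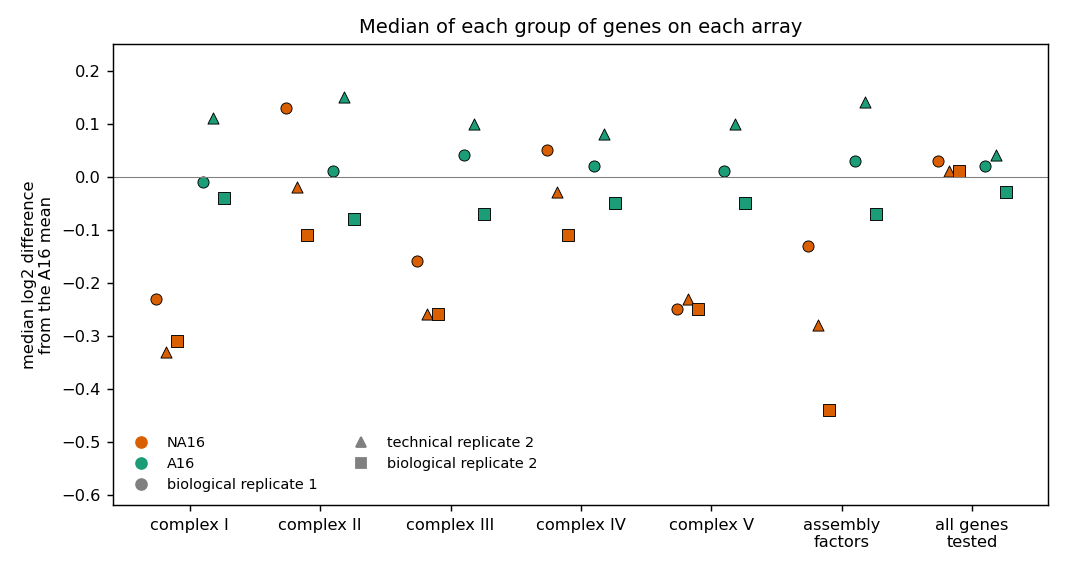
Median log2 difference from the A16 mean (vertical axis) over the genes of each complex, on the 3 NA16 arrays (left of each pair) and the 3 A16 arrays (right), with all genes tested at the far right. The NA16 medians of complex I lie between -0.33 and -0.23 and those of complex V between -0.25 and -0.23, below every A16 array, while those of complexes II and IV overlap with A16.

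Array by array, the medians of complexes I, III and V and of the assembly factors lay below every A16 array on all 3 NA16 arrays. For complex I they were -0.23, -0.33 and -0.31 on NA16 arrays, against -0.01, 0.11 and -0.04 on A16 arrays, each relative to the A16 mean. For complex V they were -0.25, -0.23 and -0.25 on NA16 arrays, against 0.01, 0.10 and -0.05 on A16 arrays. For complex II, by contrast, they were 0.13, -0.02 and -0.11 on NA16 arrays, against 0.01, 0.15 and -0.08 on A16 arrays. The A16 array of technical replicate 2 was the highest A16 array in each of the 5 complexes, and the biological replicate 2 array was the lowest.

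Promoter sequences are shown for Ndufaf4 and Cox6a2, the members with the largest fall and rise, for Ndufa11, the subunit with the largest fall for which a window was found, and for Cox7a2l, the other member that rose whichever replicate was left out. Each window holds 300 bases, 250 before and 50 after the annotated start, from RefSeq on build GRCr8, read 5′ to 3′ on the strand of the gene. Cyc1 had no entry. They lie at chr5:43401545-43401844 on the plus strand for Ndufaf4, chr9:1637364-1637663 on the plus strand for Ndufa11, chr1:192219667-192219966 on the minus strand for Cox6a2 and chr6:16936324-16936623 on the plus strand for Cox7a2l. Capitals mark matches, on either strand, to CGCANGCG (the core bound by NRF1, the nuclear respiratory factor), CCGGAAG (an ETS core of the kind bound by GABP), AAGATGG (a YY1 core) and ACGTG or GCGTG (the hypoxia response core).
Ndufaf4: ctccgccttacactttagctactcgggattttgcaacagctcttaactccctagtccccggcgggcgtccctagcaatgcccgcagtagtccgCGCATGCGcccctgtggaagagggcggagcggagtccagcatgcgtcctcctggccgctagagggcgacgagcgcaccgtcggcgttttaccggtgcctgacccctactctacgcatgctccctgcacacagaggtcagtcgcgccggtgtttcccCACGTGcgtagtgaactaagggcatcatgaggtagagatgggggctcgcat
Ndufa11: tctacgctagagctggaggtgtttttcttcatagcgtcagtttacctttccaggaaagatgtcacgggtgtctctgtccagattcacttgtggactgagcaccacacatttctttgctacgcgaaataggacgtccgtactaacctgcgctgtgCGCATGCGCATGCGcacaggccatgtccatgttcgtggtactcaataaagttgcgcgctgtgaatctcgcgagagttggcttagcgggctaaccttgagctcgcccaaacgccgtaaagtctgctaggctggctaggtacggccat
Cox6a2: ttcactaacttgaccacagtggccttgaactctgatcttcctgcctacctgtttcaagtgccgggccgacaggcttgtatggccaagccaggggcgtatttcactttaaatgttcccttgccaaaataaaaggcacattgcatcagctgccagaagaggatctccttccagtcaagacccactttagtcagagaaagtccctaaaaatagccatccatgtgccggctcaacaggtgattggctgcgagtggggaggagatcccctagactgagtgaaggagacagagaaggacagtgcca
Cox7a2l: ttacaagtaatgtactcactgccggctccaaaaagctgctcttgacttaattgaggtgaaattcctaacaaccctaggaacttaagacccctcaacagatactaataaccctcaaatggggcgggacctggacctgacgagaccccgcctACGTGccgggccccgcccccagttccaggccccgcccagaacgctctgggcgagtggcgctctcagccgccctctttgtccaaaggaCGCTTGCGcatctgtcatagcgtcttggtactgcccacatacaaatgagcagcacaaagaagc

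The Ndufaf4 window held 1 NRF1 core and a CACGTG, which reads as the hypoxia response core on both strands. That of Ndufa11 held 2 overlapping NRF1 cores, that of Cox7a2l 1 NRF1 core and 1 hypoxia response core, and that of Cox6a2 none of the 4 motifs. Windows were found for 82 of the 91 genes. The NRF1 core occurred in 27 of them (32.9%), against 7.6% of all 33469 promoters of the same length, the ETS core in 30.5% against 8.75%, and the YY1 core in 24.4% against 7.01%. The hypoxia response core, which is short and frequent, occurred in 63.4% against 41.6%. Members were counted with 1 window each, while the 33469 promoters were taken as listed and were not limited to the genes tested. By call, the NRF1 core was in 12 of 26 windows of genes that fell (46.2%), in 1 of 3 of genes that rose and in 14 of 53 of genes not called (26.4%). The ETS core was in 26.9% of windows of genes that fell and 32.1% of those not called, and the YY1 core in 26.9% and 24.5%. The hypoxia response core was in 53.8% of windows of genes that fell and 67.9% of those not called. These are matches of letters and were not tested as sites.

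Regulators of the respiratory genes changed in both directions, with log2 changes from -2.35 to 2.71, against -1.07 to 0.94 for the structural subunits. The NRF1 gene itself, Nrf1, measured 8.00, 8.25 and 7.99 in NA16 cells, against 9.25, 9.40 and 9.39 in A16 cells, a fall of 2.47-fold (adjusted p = 2.6e-04). Pprc1, a coactivator of NRF1 related to PGC-1alpha, stood at 8.18, 7.75 and 7.72 in NA16 cells, against 10.25, 10.27 and 10.12 in A16 cells. That was the largest fall among the listed regulators, at 5.10-fold (log2 change -2.35 ± 0.13 SE, adjusted p = 6.9e-05). Gabpb1, the partner subunit of GABP, was 2.05-fold lower (adjusted p = 7.6e-04), while Gabpa, its DNA-binding subunit, Yy1 and Ppargc1a, which encodes PGC-1alpha, changed by -0.20, -0.11 and -0.07 and did not pass. Mxi1, an antagonist of Myc, was 6.52-fold higher (adjusted p = 4.1e-05), at 12.74, 12.90 and 12.96 in NA16 cells, against 10.23, 10.28 and 10.11 in A16 cells. Sirt3, a mitochondrial deacetylase, was 2.82-fold higher (adjusted p = 2.7e-04). Other activators of the list rose, among them the nuclear receptor Esrra (1.45-fold, adjusted p = 0.0118) and the coactivator Ppargc1b (1.58-fold, adjusted p = 0.00348). Esrra was not called without NA16 replicate 2 or A16 replicate 2. Of the 18 regulators measured 4 fell (22.2%) and 6 rose (33.3%), at a median of 0.16, where 16.9% and 21.9% of all genes did so. Nrf1, Gabpb1, Esrra and Ppargc1b were named after their values were seen.

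Of 19 genes for the expression of mitochondrial DNA 7 fell (36.8%) and 3 rose (15.8%) at a median of -0.31, where 16.9% of all genes were called lower and 21.9% higher, with Mterf3, a factor for mitochondrial transcription and ribosome assembly, 2.56-fold lower (adjusted p = 3.4e-04). Supv3l1, a mitochondrial RNA helicase, was 1.98-fold lower (adjusted p = 0.00175), and Top1mt, the mitochondrial topoisomerase, 2.43-fold higher (adjusted p = 0.00325). The falls in this list numbered 5 without A16 replicate 1 or A16 replicate 2, and the rises 1 without NA16 replicate 1 or A16 replicate 2. Tfam, which packages mitochondrial DNA, changed by -0.16 and did not pass. Of 73 mitochondrial ribosomal protein genes 30 fell (41.1%) and 6 rose (8.22%) at a median of -0.34, and of 48 cytosolic ribosomal protein genes 3 fell (6.25%) and 1 rose at a median of 0.04. The 2 subunits of complex IV encoded in mitochondrial DNA that were listed, COX1 and COX2, changed by -0.08 and -0.19, did not pass, and lay near the top of the scale at 14.67 to 14.80 on NA16 arrays and 14.79 to 14.92 on A16 arrays. They stood outside the choice by symbol and were added after their values were seen.

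Of 34 assembly factors outside the choice by symbol 7 fell (20.6%) and 5 rose (14.7%) at a median of -0.02, shares near the 16.9% and 21.9% of all genes. Bcs1l, which inserts the Rieske protein into complex III, measured 8.57, 8.13 and 8.10 in NA16 cells, against 9.98, 10.00 and 9.51 in A16 cells, a fall of 2.87-fold (adjusted p = 7.9e-04). Coa7, a complex IV factor, was 2.19-fold lower (adjusted p = 0.0011). Surf1, an early complex IV factor, stood at 10.92, 10.52 and 10.53 in NA16 cells, against 9.29, 9.49 and 9.17 in A16 cells. It was 2.55-fold higher (adjusted p = 3.9e-04), so factors of the same complex moved in opposite directions. The count of rises was 3 without NA16 replicate 1 or A16 replicate 2.

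Coenzyme Q is the carrier that takes electrons from complexes I and II to complex III. Of 12 genes for its synthesis 2 fell (16.7%) and 4 rose (33.3%), where 16.9% and 21.9% of all genes did so. Coq8a, a kinase-like protein of the pathway, was 6.04-fold higher (adjusted p = 5.0e-05), at 9.41, 9.45 and 9.66 in NA16 cells, against 6.88, 7.11 and 6.90 in A16 cells. The paired coenzyme Q chaperones split, with Coq10a 3.55-fold higher (adjusted p = 7.4e-05) and Coq10b 2.26-fold lower (adjusted p = 0.00136). Of 16 genes for other electron donors and proton leak 2 fell (12.5%) and 4 rose (25%), close to the shares over all genes. Aifm1, a flavoprotein needed for the import of respiratory chain subunits, was 2.94-fold lower (adjusted p = 1.2e-04), and Dhodh, which feeds electrons from pyrimidine synthesis into the quinone pool, 2.62-fold higher (adjusted p = 5.0e-04). Aifm2, a quinone reductase, was 1.50-fold higher on its brightest probe set (adjusted p = 0.00587) and did not pass on the mean of its probe sets (adjusted p = 0.0607). Without A16 replicate 2 the rises in this list numbered 2, and without NA16 replicate 2 or A16 replicate 1 the falls numbered 1.

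Organelle turnover and hypoxia-linked respiratory genes made up the last 2 lists, to be read beside the 16.9% of all genes called lower and 21.9% called higher. Of 17 turnover genes 3 fell (17.6%) and 7 rose (41.2%) at a median of 0.06, among them the mitophagy receptor Bnip3 (6.69-fold), the mitophagy kinase Pink1 (2.40-fold) and the matrix protease Lonp1 (2.28-fold). Of 9 hypoxia-linked genes 1 fell (11.1%) and 3 rose (33.3%) at a median of 0.13. The fall was that of Iscu, the iron-sulfur cluster scaffold, named after its values were seen, which was not called without NA16 replicate 1, NA16 replicate 2 or A16 replicate 1. Those that rose were Pdk1, the kinase that limits pyruvate entry (8.88-fold), Higd1a, a complex IV partner (2.48-fold), and Lonp1, which stands in both lists. Each of these rises had an adjusted p between 2.3e-05 for Pdk1 and 0.00271 for Lonp1. The list also holds the members Cox4i2, Ndufa4l2 and Atp5if1, none of which passed, and of which Cox4i2 and Ndufa4l2 were dim.

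**Figure D5:**
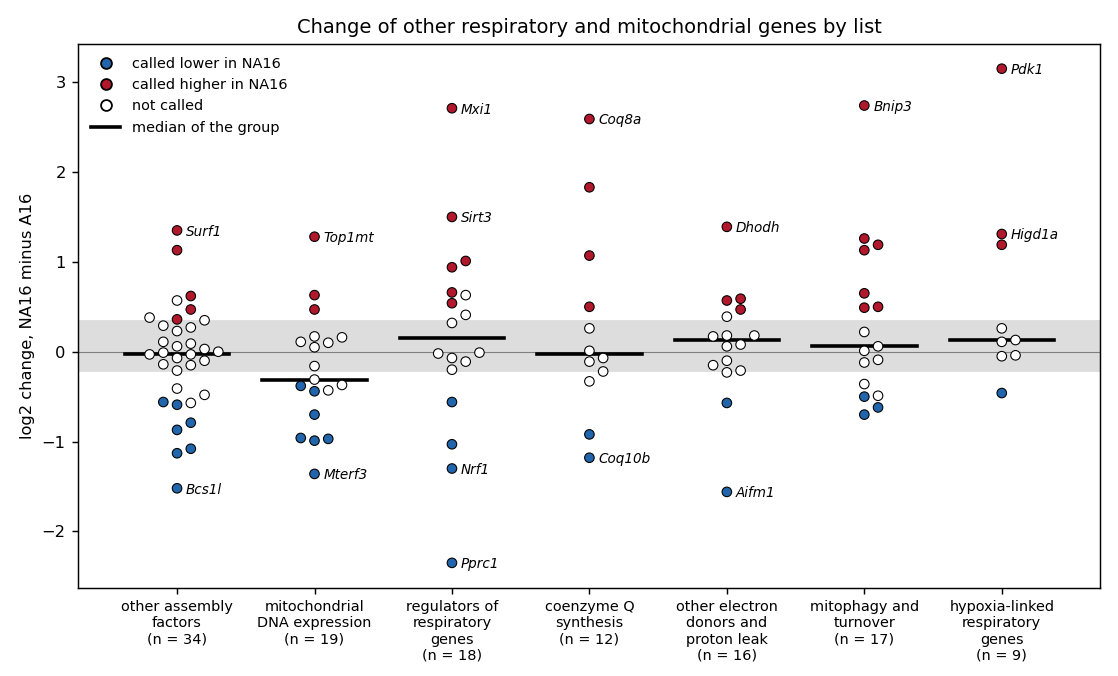
Log2 change (NA16 minus A16, vertical axis) of genes in 7 lists around the respiratory chain, each point 1 gene; filled points passed limma at an adjusted p below 0.05, bars are medians and the grey band holds the middle 50% of all 14217 genes. The regulators spread from -2.35 for Pprc1 to 2.71 for Mxi1, and the list of mitochondrial DNA expression has the lowest median, -0.31.

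For 10 members more than 1 probe set was present, and no member had probe sets called in both directions (0 of 10). Signs differed between the probe sets of 4, namely Atp5if1, Atp5me, Ndufaf7 and Ndufv3, none of which was called. The dimmer probe set of Ndufa7 changed by -0.90 and that of Ndufa9 by -0.45, both called lower among all probe sets (adjusted p = 0.0486 for Ndufa7 and 0.0297 for Ndufa9), while the brightest ones changed by -0.26 and -0.35 and did not pass. A further 9 probe sets were annotated to a gene of these families together with another gene or pseudogene. They were not assigned to a gene, and their log2 changes ran from -2.05, with a second at -2.03, to 0.32, with a median of -0.55 and 6 below 0.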

How the data were processed

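Biotin-labelled RNA of F111 cells was measured on Affymetrix Rat Genome arrays. The authors read the scans with GeneChip Operating Software and used Avadis for normalization by RMA and, separately, by PLIER. They deposited linear intensities after normalization, as 12 columns for 6 arrays. Every intensity lay above 16, so a constant appears to have been added, and fold changes of dim genes would then be too small. Log2 of the RMA intensity was taken. The sources do not state which biological replicate technical replicate 2 repeats. Because the labels of biological replicate 1 add "technical replicate 1", these 2 arrays were averaged, giving 2 replicates per state. What made a repeat biological is not stated, so p-values reflect a spread that may be technical, and the number of arrays limits the precision.

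Of 31042 probe sets 20826 carried 1 symbol in the GEO platform annotation, 436 several and 9780 none here. Entrez identifiers of 20758 matched RefSeq on GRCr8, which changed 0 symbols. The brightest single-symbol probe set stood for each of 14217 genes. Levels of different probe sets were not compared. The log2 difference, NA16 minus A16, was fitted in limma 3.58.1 (R 4.3.3, lmFit then eBayes, 2 residual and 4.78 prior degrees of freedom). P-values were adjusted after Benjamini-Hochberg over every gene, with a threshold of 0.05, and the fit was tested on simulated data. SDs and ± values are over replicates or standard errors as stated. Members, lists, markers and motifs were chosen with earlier results of these data known, so members are described by counts and medians, with no test over a list or between complexes. Named were, in each complex, module or class, the 3 largest falls and 2 largest rises called, the isoform pairs, complex II and Cyc1, up to 3 called genes of each list and members with disagreeing probe sets. Other members are named as context, after their values were seen. The alternatives covered PLIER, the constant, the replicate unit, a block, left-out replicates, probe sets, a filter, scaling, variance and the methods' t-test. 1 of them, averaging technical replicate 2 with the array it correlated with best, was added after seeing the data. Colony and tumour samples were not analysed here.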

Additional observations from a re-analysis of the deposited data

How the results depend on the processing

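Of the 29 members that fell, 18 falls were left with technical replicate 2 omitted, 22 when it was averaged with the array it correlated with best in each state, and 16 to 23 when 1 replicate was left out in turn. That array was biological replicate 2 in NA16 (Pearson r = 0.9970, against 0.9929 with biological replicate 1) and biological replicate 1 in A16 (0.9970 against 0.9912). Rises among the members numbered 5 with each array as its own replicate, and 2 to 3 with 1 replicate left out. By the methods' t-test with at least 2-fold change and Benjamini-Hochberg adjustment, 0 members fell and 0 rose, against 5 lower and 12 higher over all genes, and over the other lists together 0 were lower and 1 higher, where limma called 26 lower and 31 higher. Without adjustment that test called 2 members and 1809 genes, and 29 members had an unadjusted p below 0.05, against 39 by limma. The median change of complex I ran from -0.39, without A16 replicate 2, to -0.23 over the left-out replicates, that of complex IV from -0.18 to -0.03, and that of all genes from -0.03 to 0.05. Complex IV without its muscle, testis and hypoxia forms had a median of -0.16. No called member changed sign in the 17 alternatives, which re-use the same arrays and in part share the log2 change of the main fit. The cause of these shifts was not tested.

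A paired fit with the replicate number as a replicate block called 39 members lower and 5 higher. Same-numbered replicates deviated together (r = 0.5566 over 14217 genes), so they shared some variation across the 2 states. Its source is not stated in the labels, which name no shared batch, and there were only 2 pairs. The main fit took no block.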
